A study of Mus musculus with 2 samples.

Results

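The erythroid cells of a mouse liver single-cell series were droplets chosen by their globin content: at least 30% of unique molecular identifiers (UMIs, each counting 1 captured RNA molecule) came from 4 adult globin genes, Hbb-bs, Hbb-bt, Hba-a1 and Hba-a2. A member also needed 500 UMIs or more and 200 detected genes or more, and mitochondrial genes could supply no more than 25% of its UMIs. They numbered 372 of 17705 barcodes that passed the same depth and mitochondrial filters, out of 32316 barcodes in all. The labels describe 1 sample with knockout of Cebp and 1 with wild-type Cebp, both livers from mice given a NASH-promoting 40% HFCFD (a diet high in fat, cholesterol and fructose) for 2 weeks. The study deleted the floxed gene Cebpa, which encodes a hepatocyte transcription factor, with Cre recombinase driven from the albumin promoter, so the deletion was aimed at hepatocytes and not at blood cells. The labels name neither the Cre line, constitutive or tamoxifen-inducible, nor the age of the mice, nor how many animals gave each sample. The livers were perfused and digested, and the cells were purified on Percoll before droplet capture. Both samples share 1 count matrix whose barcodes end in suffix 1 or suffix 2. No label ties a suffix to a genotype, so the libraries are given side by side as unassigned libraries, and no knockout effect can be read from them.

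Red blood cells are made from nucleated erythroblasts, which fill with haemoglobin, stop dividing and expel the nucleus. The resulting reticulocyte still holds RNA, and it loses that RNA together with its mitochondria and ribosomes as it matures. Adult haemoglobin is built from alpha and beta globin chains around haem, an iron-holding ring that is made partly in the mitochondria. The fetal liver is a main site of red cell production, whereas red cells in an adult liver are mostly those of the blood that passes through it.

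Members were 261 of 11617 kept barcodes (2.25%, exact binomial 95% interval 1.98% to 2.53%) with suffix 1 and 111 of 6088 (1.82%, 1.5% to 2.19%) with suffix 2. The intervals overlapped, and with 1 library per suffix no test was possible. All intervals here cover counting error only. Without any filter 269 and 125 barcodes reached the globin limit, of which the mitochondrial limit removed 5 and 12. The median mitochondrial share of all barcodes was 4.07% with suffix 1 and 41.3% with suffix 2, so the filter worked on different libraries. Few droplets lay near the globin limit that defined the members, and there was no gap at it. In all, 49 and 20 kept barcodes lay between 5% and 30%, and 11298 and 5953 were under 1%. With suffix 1 the nearest barcodes outside the limit had globin shares of 27.9%, 29.5% and 29.7% and the nearest inside 31%, 32.3% and 32.4%. With suffix 2 they had 28.6%, 28.9% and 29.5% outside and 31.2%, 32.8% and 33.6% inside. Of 81 barcode sequences that occurred with both suffixes, 2 belonged to members, and neither had a member as its twin.

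**Figure D1:**
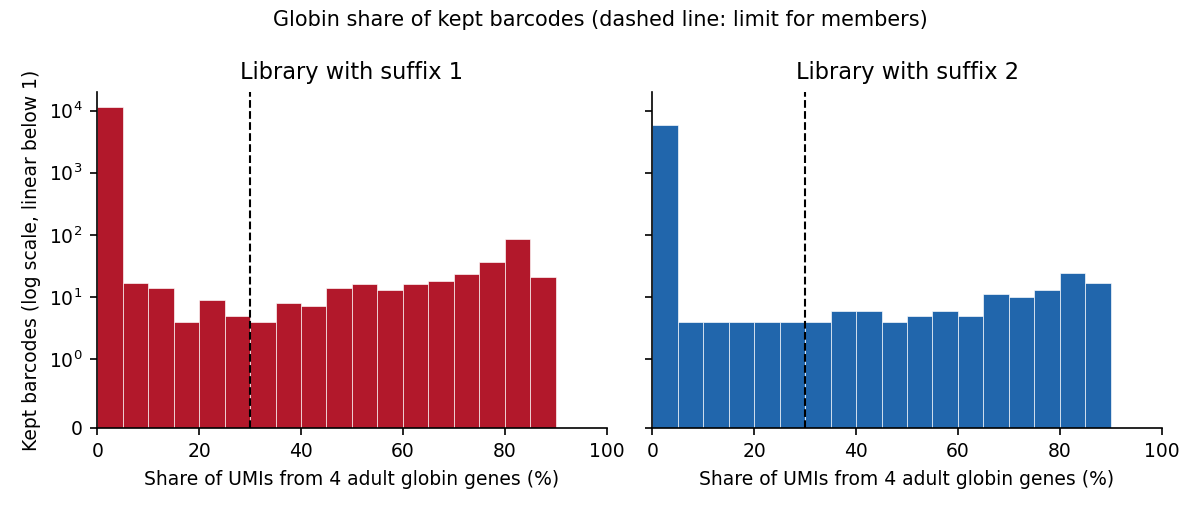
Kept barcodes (log scale, linear below 1) by the share of their UMIs from the 4 adult globin genes in 5-point bins, for each library, with the 30% limit as a dashed line. Most barcodes lie below 5%, few lie between 5% and 30%, and no member reaches 90%.

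Beside the globins the members held little. The median member had 4567 UMIs with suffix 1 (lowest 752, highest 11678) and 4057 with suffix 2 (lowest 747, highest 10486), but only 402 and 346 detected genes. T and B cell droplets of similar depth are a useful comparison. These lymphoid barcodes, 856 and 830 of them, had at least 3 UMIs of Cd3d, Cd3e, Cd3g, Cd79a and Cd79b together and under 5% globin. They had medians of 4729.5 and 4332 UMIs with 1960 and 1825.5 detected genes. Outside the globins the median member held 932 and 862 UMIs. After each droplet was thinned to 600 non-globin UMIs, which left out 14 and 11 members and no lymphoid barcode, members still showed fewer genes, with medians of 302 and 279 against 425 and 419. The unthinned medians of the same droplets, without the globins, were 416 and 361.5 against 1959.5 and 1824.5.

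The promoters of Hbb-bs, Hbb-bt, Hba-a1 and Alas2 are shown because the globins define the members and Alas2 leads their haem genes. Each runs from 250 bases before to 50 bases after a RefSeq gene start (GRCm38.p6, 5′ to 3′ on the strand of the gene). Capitals mark, on either strand, the GATA factor motif in the forms AGATAA and also TGATAA, or AGATAG and also TGATAG. They also mark the box CCACACC, bound by KLF factors, and the box CCAAT. Hbb-bs lies at chr7:103827879-103828178 and Hbb-bt at chr7:103813874-103814173, both on the minus strand. Hba-a1 lies at chr11:32283422-32283721 and Alas2 at chrX:150547167-150547466, both on the plus strand.
Hbb-bs: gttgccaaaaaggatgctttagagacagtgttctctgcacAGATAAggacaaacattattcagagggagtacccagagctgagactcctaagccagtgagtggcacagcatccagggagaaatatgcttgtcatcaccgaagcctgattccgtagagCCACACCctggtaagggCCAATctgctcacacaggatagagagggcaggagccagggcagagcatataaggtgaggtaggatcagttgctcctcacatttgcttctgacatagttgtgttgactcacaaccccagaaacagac
Hbb-bt: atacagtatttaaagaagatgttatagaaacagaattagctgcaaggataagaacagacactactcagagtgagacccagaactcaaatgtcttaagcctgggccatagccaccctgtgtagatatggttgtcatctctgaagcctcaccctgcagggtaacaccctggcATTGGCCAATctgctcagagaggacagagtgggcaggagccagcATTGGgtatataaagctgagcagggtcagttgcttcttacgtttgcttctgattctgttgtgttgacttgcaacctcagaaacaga
Hba-a1: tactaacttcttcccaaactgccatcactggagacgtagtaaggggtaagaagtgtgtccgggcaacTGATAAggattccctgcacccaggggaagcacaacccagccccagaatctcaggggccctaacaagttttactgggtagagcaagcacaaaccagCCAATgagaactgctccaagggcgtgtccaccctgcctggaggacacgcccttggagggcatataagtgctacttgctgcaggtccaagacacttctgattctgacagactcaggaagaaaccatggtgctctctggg
Alas2: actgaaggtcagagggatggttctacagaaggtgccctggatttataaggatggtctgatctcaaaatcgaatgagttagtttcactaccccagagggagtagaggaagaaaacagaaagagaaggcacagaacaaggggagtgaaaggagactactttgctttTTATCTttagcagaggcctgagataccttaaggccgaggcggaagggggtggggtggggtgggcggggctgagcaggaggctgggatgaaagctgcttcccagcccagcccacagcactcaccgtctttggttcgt

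The Hbb-bs window held 1 match of each kind, whereas the Hbb-bt window held no GATA form, no CCACACC and 3 CCAAT matches, 2 of them adjacent on opposite strands. Hba-a1 held 1 GATA form and 1 CCAAT, and Alas2 held 1 GATA form. The windows of Hbb-bs and Hbb-bt were 73.6% identical over 295 aligned positions, and those of Hba-a1 and Hba-a2 were 100% identical over 297. Among 32851 windows of this length, 29.8% held a GATA form, 7.58% held CCACACC and 37.4% held CCAAT. Of the 17 globin and high-ratio genes with a window, 9 held a GATA form, 2 held CCACACC and 10 held CCAAT. These are matches of letters, not measured binding.

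The adult genes supplied almost all globin UMIs. Hbb-bs, the major adult beta gene of this haplotype, gave 54.6% of them with suffix 1 and 57.3% with suffix 2, and Hbb-bt, its neighbour, gave 9.86% and 9.46%. Hba-a1 gave 19.8% and 18.4%, and Hba-a2 gave 15.7% and 14.8%. The transcripts of Hba-a1 and Hba-a2 were 99.8% identical over 538 aligned bases, so the split between these genes is uncertain, while Hbb-bs and Hbb-bt were 93% identical over 618. Alpha chains together made up 35.5% (35.4% to 35.6%) and 33.3% (33.1% to 33.4%) of adult globin UMIs. The embryonic genes Hbb-bh1, Hbb-bh2 and Hba-x had 0 UMIs in both libraries, which allows up to 3, and Hbb-y had 2 and 0. The theta-like genes Hbq1a and Hbq1b had 33 and 21 UMIs with suffix 1 and 6 and 8 with suffix 2.

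The balance between the adult beta genes varied far more among members than the alpha share. The Hbb-bt share of adult beta UMIs ran from 0% to 27.3% with suffix 1 and to 24.5% with suffix 2. Its quartiles were 2.75%, 12.3% and 18.5% with suffix 1 and 2.12%, 7.76% and 17.4% with suffix 2. Under 5% lay 90 of 261 and 48 of 111 members, between 5% and 10% lay 23 and 12, and 148 and 51 were at 10% or more. The alpha share of the members had quartiles of 33.8%, 35.5% and 37.8% with suffix 1 and 30.7%, 33.0% and 35.8% with suffix 2. In the lymphoid barcodes, which should not express globin, the Hbb-bt share of the summed beta UMIs was 8.77% (7.13% to 10.6%) and 12.7% (9.12% to 17.0%).

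Members rich in Hbb-bt were also rich in other erythroid transcripts. The UMIs of Alas2, Bpgm and Mkrn1, genes described below, were summed for each member. Members under 5% Hbb-bt held 1.41 and 1.52 such UMIs on average (intervals 1.18 to 1.68 and 1.19 to 1.91). Members at 5% to 10% held 7 in both libraries, and those at 10% to 15% held 17 in both. Members at 15% to 20% held 25 (23.8 to 26.2) and 31.2 (29.1 to 33.4), and those at 20% or more held 34.2 (32.5 to 36.0) and 30.9 (28.0 to 34.1). The means were higher in each group up to 15% to 20%. Beyond it the intervals of the suffix 1 library were apart and those of the suffix 2 library overlapped. None of the 3 genes was found in 40 and 21 members, and 39 and 20 of these were under 5% Hbb-bt.

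Depth moved with the share. The median member under 5% Hbb-bt held 2028.5 and 2103 UMIs and the median member at 20% or more 6860 and 6224. Per 1000000 non-globin UMIs the 3 genes went from 1666 and 1602 to 25051 and 20304. Spearman's rho over members between the Hbb-bt share and the summed UMIs of the 3 genes was 0.853 with suffix 1 (n = 261) and 0.857 with suffix 2 (n = 111). With the sum taken per non-globin UMI, it was 0.822 and 0.811. The globin UMIs of a member followed the 3 genes more closely still, with a rho of 0.903 and 0.918. Within members of 75% to 90% globin alone, the rho between the Hbb-bt share and the 3 genes was 0.669 (n = 142) and 0.730 (n = 54). These are descriptions over cells that share a library and a depth, with no test. Between the Hbb-bt share and the alpha share rho was -0.03 and -0.07.

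**Figure D2:**
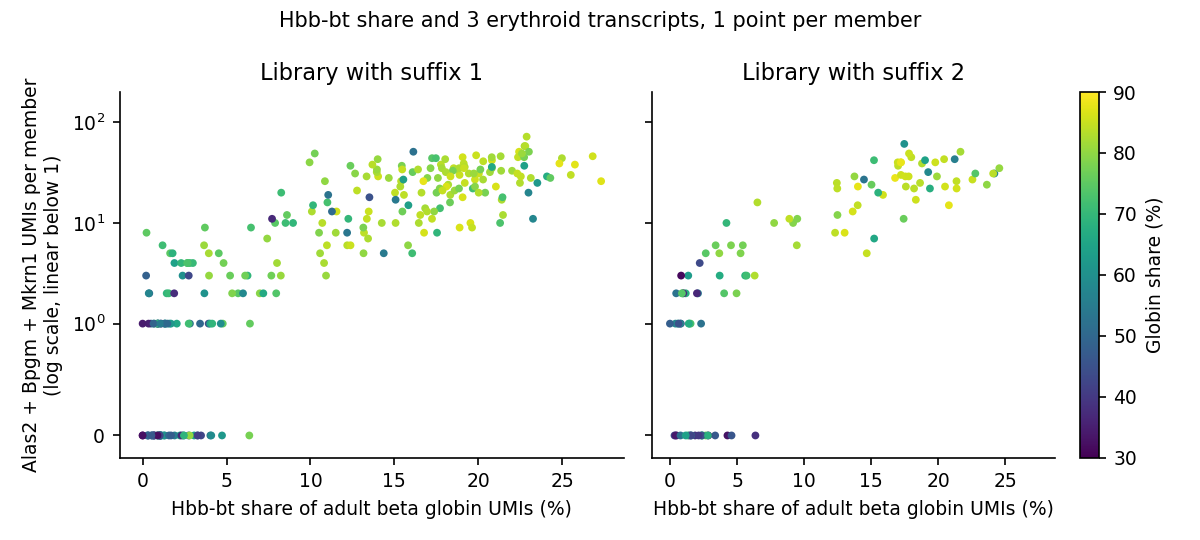
Each point is 1 member, placed by its Hbb-bt share of adult beta globin UMIs (x axis, %) and its summed UMIs of Alas2, Bpgm and Mkrn1 (y axis, log scale, linear below 1), and coloured by its globin share (%). Points with 0 such UMIs sit at low Hbb-bt shares, and points above 15% Hbb-bt mostly hold more than 10.

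Less abundant genes showed the same division. Car2 (carbonic anhydrase 2, which interconverts carbon dioxide and bicarbonate) had 0 of 82 UMIs with suffix 1 and 1 of 82 with suffix 2 in members under 5% Hbb-bt. Slc4a1 (band 3, the anion exchanger) had no UMI in members under 10% Hbb-bt in either library, against 24 and 8 UMIs in the rest. Alb (albumin) differed far less, at 40.5 and 40.1 UMIs per member under 5% Hbb-bt and at 53.0 and 44.3 at 20% or more, with a rho to the Hbb-bt share of 0.235 and 0.200. The median mitochondrial share of members under 5% was 1.00% and 3.02%, against 0.686% and 1.32% at 20% or more, and its part in the relation was not tested.

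Haem synthesis was led by its erythroid first step. Levels from here on are UMIs summed over the members of a library per 1000000 non-globin UMIs (CPM), with exact Poisson 95% intervals. Alas2 (erythroid aminolevulinate synthase, chromosome X) stood at 4233 CPM (3998 to 4478) in the suffix 1 library and 3688 (3359 to 4040) in the other. Lymphoid barcodes had 7.70 and 13.2. Of members with at least 600 non-globin UMIs, 82.6% and 80.0% held an Alas2 UMI. After thinning to 600 these shares were 77.3% and 71.0%, against 0.467% and 0.843% of lymphoid barcodes, for which the unthinned shares were 4.21% and 6.02%. Fech (ferrochelatase, which inserts the iron) was at 623 and 400, and Slc25a37 (mitoferrin, which carries iron into mitochondria) at 547 and 352. The enzymes between these steps were scarce: Uros had no UMI in either library, Ppox had 1 in each, and Alad stood at 45.3 and 24.0. The housekeeping first enzyme Alas1 was at 202 and 56.0, against 293 and 99.9 in barcodes with under 5% globin (globin-poor barcodes). With suffix 2 it rests on 7 UMIs, and its interval of 22.5 to 115 holds the globin-poor level.

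Against the globin-poor barcodes of the same library, 116 of 3126 genes tested were at least 2-fold higher in members in both libraries (3.71%) and 950 were at least 2-fold lower (30.4%). A gene was tested when its observed or expected UMIs in members, both libraries together, reached 20, the expected UMIs being those at the globin-poor level. Of the 116 higher genes 51 reached 20 expected UMIs. The other 65 entered only through their own counts in members and so had to be higher, and the counts of higher genes here and in each list are descriptions that support nothing. The median ratio over these genes was 0.654 with suffix 1 and 0.543 with suffix 2. Against lymphoid barcodes 16.8% of the same genes were higher and 36.5% lower. Of 14 haem synthesis genes 8 were tested, and 3 (Alas2, Fech and Slc25a37) were higher and none lower. Of these only Fech reached 20 expected UMIs, at 20.5, while Alas2 had 10.6 and Slc25a37 had 4.25.

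Late maturation transcripts were the most abundant erythroid group outside the globins. Of 24 listed genes 23 were in the matrix and 16 were tested, of which 12 were higher and none lower, where 3.71% and 30.4% of all genes tested were. Only 3 of the 12, Bnip3l, Riok3 and Ubb, reached 20 expected UMIs. The list as a whole stood at 22574 CPM (22028 to 23130) and 20991 (20195 to 21810), and lymphoid barcodes had 2004 and 1923. Per droplet that was 24.8 and 23.6 UMIs against 12.2 and 11.2. Bpgm (bisphosphoglycerate mutase, which makes the small molecule that tunes oxygen release) led it at 5573 (5303 to 5853) and 5008 (4623 to 5416). Mkrn1 (a ubiquitin ligase) was at 4386 (4147 to 4635) and 4008 (3664 to 4375), and Ubb (polyubiquitin) was at 3617 (3400 to 3844) and 4168 (3818 to 4542). Mkrn1 was above Ubb with suffix 1, and their intervals overlapped with suffix 2. Per droplet Bpgm came to 6.13 and 5.64 UMIs against 0.0993 and 0.0627 in lymphoid barcodes, but Ubb was lower in members, at 3.98 and 4.69 against 5.80 and 5.21. Riok3 (0.268 and 0.279 against 0.440 and 0.465) and Dcaf12 (0.230 and 0.171 against 0.318 and 0.320) were also lower per droplet, although called higher on the CPM scale. Bnip3l (a mitophagy receptor needed to clear mitochondria from reticulocytes) was at 1608 and 1304. Ube2l6 (a conjugating enzyme for ubiquitin-like ISG15) was at 1459 and 1232, and Tent5c (a poly(A) polymerase) at 1204 and 936. Ube2o, the reticulocyte ubiquitin enzyme that removes unassembled globin and ribosomal proteins, was at 383 and 368. Alox15, a lipoxygenase known from rabbit reticulocytes, and Ypel4 had 0 UMIs in both libraries.

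**Figure D3:**
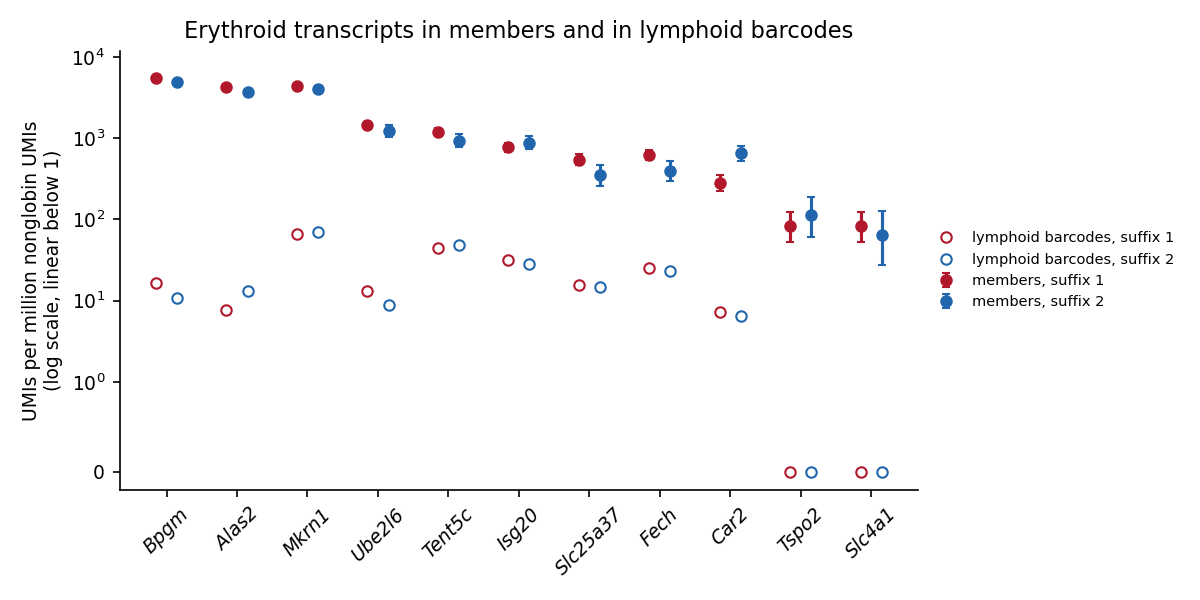
UMIs per 1000000 non-globin UMIs (log scale, linear below 1) of 11 erythroid transcripts in members (filled, with exact Poisson 95% intervals) and in lymphoid barcodes (open) of each library. Bpgm at 5573 and 5008 leads, the lymphoid levels lie far below in both libraries, and the level of Slc4a1 with suffix 2 rests on 8 UMIs. All but Fech were among the 20 genes with the highest ratio to globin-poor barcodes, so the gap is a description that supports nothing.

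Among transcripts of the red cell membrane and skeleton, Epb41 was held by 115 of 261 and 50 of 111 members, and Slc4a1 by 14 and 7. Of 22 listed genes 6 were tested, of which 4 were higher and Cd47 (a marker that restrains phagocytes) was lower, where 3.71% and 30.4% of all genes tested were. Of the 4 only Epb41 reached 20 expected UMIs. Epb41 (protein 4.1 of the membrane skeleton) was at 842 and 896, about 10.0 and 9.78 times its globin-poor level. Lymphoid barcodes held it about as often, with a UMI in 49.5% and 45.4% of them against 44.1% and 45% of members, and at 0.970 and 0.778 UMIs per droplet against 0.927 and 1.01. Slc4a1 stood at 83.5 (53.5 to 124) and 64.0 (27.6 to 126), from 24 and 8 UMIs, and no UMI of it was found in any of the 11307 and 5957 globin-poor barcodes. Against a floor of 3 UMIs in each library, these point values are 1121-fold and 541-fold higher, and the low ends of their intervals give smaller folds. Gypc, Dmtn, Rhag, Slc2a1, Add2, Tmod1 and Ermap had 0 UMIs in both libraries, which does not show that they are absent at this depth.

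Regulators of early erythropoiesis were at 0 or few UMIs, apart from Lmo2. Gata1, Tal1, Gfi1b, Myb and Gata2, transcription factors of erythroid and earlier progenitors, had 0 UMIs in both libraries. A count of 0 leaves room for a level of up to 10.4 with suffix 1 and 24.0 with suffix 2 (3 UMIs). Klf1 had 1 UMI in each library, whereas Lmo2, a partner of these factors, was at 62.7 and 112. Only 2 of the 12 listed factors were tested, and Lmo2, with 32 observed and 7.14 expected UMIs, was tested only through its observed UMIs, so its call as higher supports nothing. Per droplet it was at 0.0690 and 0.126 UMIs against 0.146 and 0.110 in lymphoid barcodes. The progenitor receptors Kit, Epor and the marker Cd34 had 0 UMIs, and Tfrc, the transferrin receptor of iron-loading precursors, had 4 and 4. Among 14 proliferation genes Mki67 and Top2a had 0 UMIs, and the list stood at 108 and 80.0 against 829 and 897 in lymphoid barcodes. All 10 megakaryocyte and platelet genes, Pf4 and Ppbp among them, had 0 UMIs, so platelet RNA was not detectable in these droplets.

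RNAs that stay in the nucleus were scarce as well. Malat1, a nuclear long RNA, was at 0.977 and 1.59 UMIs per member against 72.7 and 56.5 per lymphoid barcode. After thinning, 22.7% and 18% of members held a Malat1 UMI, against 97.4% and 96.0% of lymphoid barcodes. The unthinned shares were 36.4% and 27.0% against 100% and 99.8%. Single members held 61 of 255 Malat1 UMIs with suffix 1 and 50 of 177 with suffix 2. Ribosomal protein transcripts, from 83 genes, came to 61.4 and 55.0 UMIs per member against 1154 and 964 per lymphoid barcode. On the CPM scale they were also lower, at 55814 and 48837 against 190265 and 165412, with 82575 and 83232 in globin-poor barcodes. Mitochondrial transcripts were at 97.4 and 206 UMIs per member against 289 and 391 per lymphoid barcode. On the CPM scale the order of the sums was the opposite, at 88517 and 183302 in members against 47612 and 67110. The means lie well above the medians. The median member held 35 and 59 mitochondrial UMIs (highest 1692 and 1911), against 173.5 and 211.5 in the median lymphoid barcode. Median non-globin UMIs were 932 and 862 in members and 4729 and 4331 in lymphoid barcodes. The order of the sums in CPM need not be that of the typical member. Globin-poor barcodes had 87420 and 90951.

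Iron and redox genes showed a mixed picture. Ncoa4, the receptor that takes ferritin to lysosomes, was at 362 and 344, and Glrx5, of iron-sulphur cluster assembly, at 682 and 520, both above globin-poor barcodes. The ferritin chains Fth1, at 6085 and 4720, and Ftl1, at 4640 and 3368, were within 2-fold of them. The iron exporter Slc40a1 (48.7 and 48.0) and the haem-degrading Hmox1 (10.4 and 32.0), both of macrophages, were lower. Of 11 redox and carbonic anhydrase genes 10 were tested and 3 were higher, where 3.71% of all genes tested were: Prdx2 (a red cell peroxiredoxin) at 985 and 888, Blvrb (biliverdin reductase B) at 366 and 352, and Car2 at 285 and 656. Car2, with 1.89 expected UMIs, was again tested only through its own 164. Per droplet Car2 was 7.08 and 19.8 times as high as in lymphoid barcodes, whereas the ratio was 1.32 and 1.20 for Prdx2, 1.07 and 1.15 for Blvrb, and 1.5 and 1.19 for Glrx5. Gpx1 was at 3175 and 2920 and within 2-fold of globin-poor barcodes.

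Hepatocyte genes were prominent in the remaining RNA. The 10 genes with the most UMIs outside globin and mitochondrial genes were Gm42418, Alb, Mup20, Apoa2, Apoe, Apoc1, Ttr, Fabp1, Scd1 and Apoa1. Gm42418, with 19271 UMIs in both libraries together, is annotated as a long non-coding RNA gene and is not in the hepatocyte list. It was the only 1 of the 10 called higher than in globin-poor barcodes, with 7114 expected UMIs. The 18 hepatocyte genes together stood at 225671 (223937 to 227415) and 203149 (200658 to 205663). Per droplet they came to 248 and 229 UMIs, against 305 and 332 in lymphoid barcodes of the same libraries, which should not express them. Alb was at 44.2 and 41.5 UMIs per member against 61.7 and 73.3 per lymphoid barcode. Each of the 18 genes was lower per droplet in members, at 0.612 to 0.942 of the lymphoid value with suffix 1 and 0.487 to 0.844 with suffix 2. On the CPM scale the order was the opposite, with 50233 and 57009 for the 18 genes in lymphoid barcodes, which hold more non-globin UMIs per droplet, and 149468 and 131404 in globin-poor barcodes. A count per droplet at or below that of cells that should lack a transcript is not read here as expression by members. The source of these UMIs was not tested, and the lymphoid droplets may include doublets. None of the 18 was called against globin-poor barcodes, which hold many hepatocytes.

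**Figure D4:**
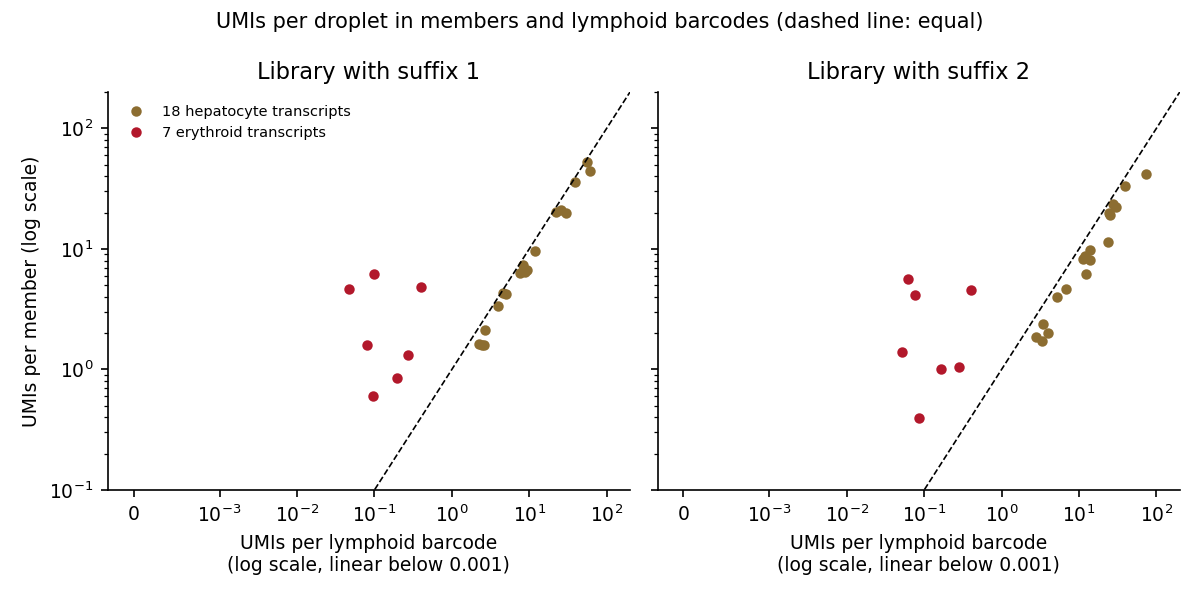
UMIs per member against UMIs per lymphoid barcode for 18 hepatocyte and 7 erythroid transcripts, both on log scales (x linear below 0.001), with equality as a dashed line. Hepatocyte points, such as Alb at 44.2 against 61.7 with suffix 1, lie just under the line, and the erythroid points, such as Alas2 at 4.66 against 0.0467, lie far above it. The 7 erythroid genes were among the 20 with the highest ratio to globin-poor barcodes, so their place is a description that supports nothing. Ubb, Riok3 and Dcaf12, lower per droplet in members, are not plotted.

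Markers of other blood and liver cells were fewer per droplet in members than in lymphoid barcodes, which hold more non-globin UMIs. On the CPM scale this did not hold for every list. The macrophage list was at 0.276 and 0.559 UMIs per member against 2.16 and 3.39 per lymphoid barcode. In CPM it was at 251 and 496 against 356 and 582, with 1616 and 3311 in globin-poor barcodes. Of its 11 genes, 9 were tested and all 9 were lower, where 30.4% of all genes tested were. In the neutrophil and monocyte list 4 of 9 genes were tested and all 4 were lower, and 12 of 12 S100a8 UMIs with suffix 1 came from 1 member. The T and NK list was at 0.207 and 0.360 UMIs per member and the B cell list at 0.345 and 0.459. Both lists hold genes that chose the lymphoid barcodes, so their order against those barcodes follows from the choice and supports nothing. The endothelial list was at 0.0920 and 0.126 UMIs per member, or 83.5 and 112 CPM against 230 and 267 in lymphoid and 317 and 501 in globin-poor barcodes. The stellate list was at 0.0805 and 0.0901, or 73.1 and 80.0 CPM, above the lymphoid 27.9 and 25 and close to the globin-poor 61.6 and 89.4, with none of its genes tested. The cholangiocyte list was at 0.410 and 0.0541, or 372 and 48.0 CPM against 477 and 27.7 in lymphoid and 794 and 171 in globin-poor barcodes, and 106 and 6 of its UMIs were Spp1. In all, 9 and 8 members had at least 3 UMIs of a macrophage, neutrophil, T and NK, B or endothelial list. They are possible doublets and stayed in the sums.

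The erythroid transcripts increased with the globin share while the hepatocyte transcripts did not. Members were placed in 4 bands of globin share, which the membership rule itself used, so the bands order the members and test nothing. From the 30% to 45% band to the 75% to 90% band, the late maturation list went from 4.47 to 36.5 UMIs per member in the suffix 1 library. It went from 2.44 to 34.6 in the suffix 2 library. Haem synthesis genes went from 2.05 to 8.96 and from 1.44 to 8.0. Over the same bands, hepatocyte genes went from 308 to 229 and from 274 to 210.5 UMIs per member. Median non-globin UMIs were 837 and 938.5 in the lowest band and 963 and 858 in the highest. Ribosomal protein transcripts had their highest value, 107 and 114 UMIs per member, at 45% to 60% and their lowest, 47.2 and 34.4, at 75% to 90%. The median Hbb-bt share went from 0.987% to 17.3% and from 1.72% to 16.9%.

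**Figure D5:**
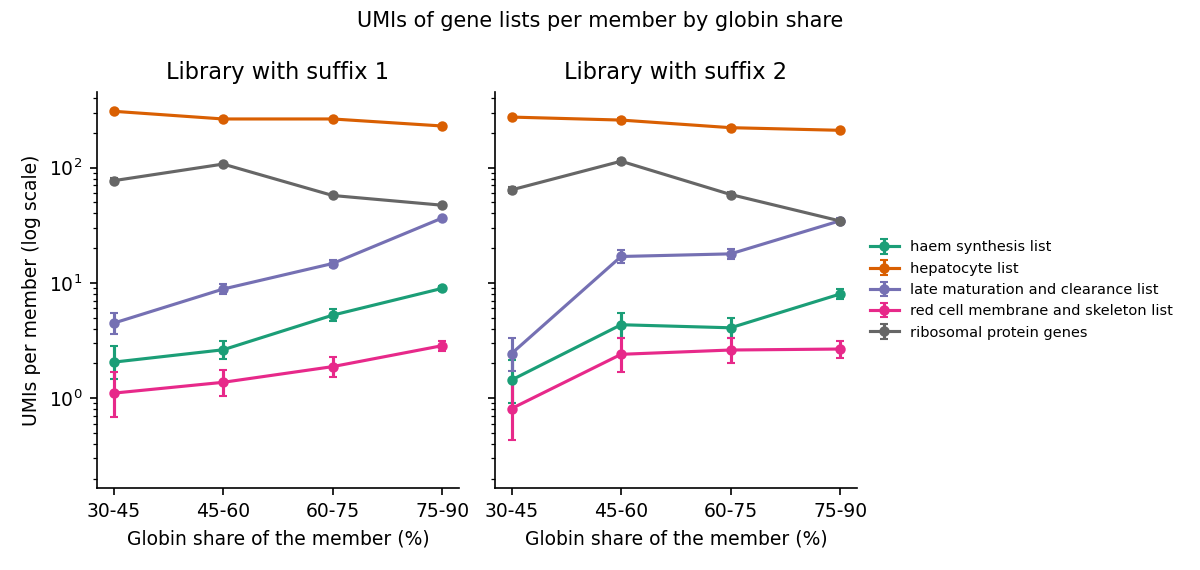
UMIs per member (log scale, exact Poisson 95% intervals) of 5 gene groups by globin share of the member (%), for each library. Late maturation transcripts go from 4.47 to 36.5 and, in the suffix 2 library, from 2.44 to 34.6, while hepatocyte transcripts stay above 200.

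Few erythroid genes were among those whose levels differed between members of the libraries. Of 288 genes at 500 CPM or more in either library, 22 were at least 2-fold higher with suffix 1 (7.64%) and 8 with suffix 2 (2.78%), with counting intervals apart. Levels taken over all UMIs gave 2 and 3 genes of 52 that reached the limit. Of these 30 genes 14 differed at least 2-fold in the same direction in globin-poor barcodes. Mup20 was at 47571 and 17047 in members and at 28282 and 10571 in globin-poor barcodes, and Mup3 was at 3937 and 17735 in members and 1917 and 9282 in globin-poor barcodes. The most extreme ratios were those of Selenbp2 (745 and 56.0), Tff3, Mt1, Thrsp and Gstp1, higher with suffix 1, and of Orm1 (41.8 and 968), Wfdc21, Mup3, Slco1b2 and Car2, higher with suffix 2. All but Car2 differed in the same direction in globin-poor barcodes.

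Car2 was a red cell gene among the 30, and a single member carried much of its difference. With suffix 2, 35 of 82 Car2 UMIs came from 1 member. Without the member that held the most in each library, Car2 was at 252 and 380, under the 2-fold limit. Without members that held markers of other cell types, it was at 301 and 519, also under that limit. It was found in 31 of 261 and 16 of 111 members. These had medians of 476 and 451.5 detected genes, against 389 and 335 in the rest. Their median depth was also larger, at 6162 and 6687.5 UMIs against 4067.5 and 3499, and its part was not tested.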

How the data were processed

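Liver cells of 1 knockout and 1 wild-type sample were captured with the 10x Genomics 3' v3.1 chemistry. The authors deposited 1 matrix of whole-number UMI counts for 32285 genes. The submitters' processing notes name Cell Ranger 7.1.0, STAR 2.7.2a, bcl2fastq 2.20.0 and the build mm10; no source used here says how introns were counted or whether depths were equalised. Levels are UMIs summed over members, divided by non-globin UMIs (all UMIs minus 10 globin genes). Shares carry Clopper-Pearson and sums Poisson 95% intervals. With 1 library per suffix and no label for either, no test was run. Folds use a floor of 3 UMIs in the reference. Doublets were not called.

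Genes named are those of 18 fixed lists, the 20 with the highest pooled ratio to globin-poor barcodes, the 10 with the most UMIs, and the 5 with the highest and 5 with the lowest ratio between libraries. Some of these are not reported here. Members and lists were chosen with earlier results of these data known. The globin bands, the Hbb-bt groups with their 3 genes, the thinning and the nuclear RNA list were added after seeing the data. Positions and transcripts came from GENCODE M21 (32158 of 32285 IDs found) and promoters from RefSeq. Calls and intervals were tested on simulated data. Python 3.11.15, numpy 2.4.6, scipy 1.17.1, pandas 2.3.3 and Biopython 1.88 were used.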

Additional observations from a re-analysis of the deposited data

Results flagged for a closer look

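Droplets over the globin limit that the mitochondrial limit had removed, 5 with suffix 1 and 12 with suffix 2, also held erythroid transcripts. In them Alas2 was at 572 (247 to 1126) and 1078 (777 to 1457) UMIs per 1000000 non-globin UMIs, and Bpgm was at 500.2 and 564. These values lie above those of lymphoid barcodes, at 7.70 and 13.2 for Alas2 and 16.4 and 10.8 for Bpgm, and below those of members. Mitochondrial UMIs, by which these droplets were removed, count among the non-globin UMIs and so lower these levels. Per droplet Alas2 was at 1.6 and 3.5 UMIs, against 4.66 and 4.15 per member. Their mitochondrial shares ran from 25.8% to 48.3% and from 25% to 45.4%.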

How the results depend on the processing

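No paired analysis was possible because each group has 1 sample and no column is tied to a sample. Members made up 1.96% of kept barcodes with suffix 1 and 1.49% with suffix 2 at a globin limit of 50%, 1.80% and 1.23% at a mitochondrial limit of 50%, 1.54% and 0.821% with none, and 3.09% and 2.29% from 1000 UMIs. At a globin limit of 50% the pooled median depth was 4900 UMIs, against 4496. The pooled Hbb-bt share of beta UMIs, 14.96%, became 14.9% and 15.4% at globin limits of 20% and 50%, and 15.1% and 14.8% at mitochondrial limits of 10% and 50%. The pooled late maturation level, 22094, became 19889 and 25496 at globin limits of 20% and 50%, and 24522 and 19929 at mitochondrial limits of 10% and 50%. Per 1000000 of all UMIs it was 5595, and per 1000000 non-globin and non-mitochondrial UMIs 25029. The pooled hepatocyte level, 218842, became 205323 at a globin limit of 20%, 230340 and 207052 at mitochondrial limits of 10% and 50%, and 232699 without members holding markers of other cell types. It was 55418 per 1000000 of all UMIs, 247911 without mitochondrial UMIs and 242591 as a mean over cells. Against lymphoid barcodes 526 genes were higher, in place of 116. With at least 50 UMIs, 205 genes were lower, in place of 950, of 1204 tested. Per 1000000 of all UMIs, 2 and 3 genes differed between the libraries, in place of 22 and 8, of 52 that reached the level limit. Spearman's rho of the Hbb-bt share and the 3 genes stayed above 0 under every member choice tried. Depth limits the rare genes: a count of 0 allows up to 12.8 and 29.5 CPM.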

Other observations

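Several further genes were among the 20 with the highest ratio to globin-poor barcodes. All 20 were tested only through their own counts in members and were ranked on that ratio, so these values are descriptions that support nothing. Apol11b, of the apolipoprotein L family, was at 153 and 120 UMIs per 1000000 non-globin UMIs with suffix 1 and suffix 2, with no UMI in any globin-poor barcode. Cdr2 was at 247 and 176, against 1.96 and 1.74 in globin-poor barcodes. Rec114, a gene of meiotic recombination, was at 237 and 96.0, against 1.62 in both. Rec114 overlaps Nptn in the annotation, and no source used here says whether counting used strand. Gm10371, annotated as antisense to Samd4, was at 108 and 88.0. Tspo2, an erythroid relative of the translocator protein, was at 83.5 and 112, with no UMI in any globin-poor barcode. Cd24a, a surface glycoprotein of immature blood cells, was at 557 and 592, against 10.7 and 11.7.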
